A study of Mus musculus with 20 samples.

Results

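The comparison is between tenocytes given insulin-like growth factor 1 (IGF1) for 1 h and tenocytes that had none, and it covers the immediate transcript response. Its members are the 4 libraries at 1 h and the 4 at 0 h, 8 of the 20 libraries of a series that also sampled 2, 6 and 24 h. Tenocytes are the fibroblast-like cells that build and keep up tendon, and here they were taken from adult C57Bl/6 mice, tissue tail tendon. The cells at 0 h received no cytokine, and those at 1 h received IGF1 at 100 ng/mL. Total RNA of each replicate was sequenced in bulk. Nothing in the labels ties a replicate to its own mouse or culture, so the p-values measure the spread between these libraries, which may be technical. No culture kept for 1 h without IGF1 was analysed here, so IGF1 and time in culture cannot be told apart.

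IGF1 binds a receptor tyrosine kinase that signals through the adaptors IRS1 and IRS2 to PI3 kinase and AKT, and through RAS to the ERK kinases. AKT phosphorylates FoxO transcription factors, which then leave the nucleus, so that genes they drive are no longer transcribed at the former rate. ERK signalling induces immediate early genes, whose transcription starts without new protein synthesis, together with feedback inhibitors of the same kinases. In tendon, IGF1 is known as a growth factor that stimulates tenocyte proliferation and matrix production.

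Total counts averaged 20764603 ± 1638115 at 0 h and 18546539 ± 2922172 at 1 h (SD, n = 4), with a range of 15850304 to 22687173 over the 8 libraries. Of 29986 genes in the table, 13708 passed the filter on low counts and were tested. On the first principal component, which held 32.7% of the variance, all 4 libraries at 1 h lay apart from the 4 at 0 h. The second component, with 14.4%, set 1 h replicate 4 (27.5) apart from the other 3 libraries at 1 h, which all lay below 0. That library also had the largest share of mitochondrial counts, 1.68% against 1.31% to 1.48% in the others. The labels give 0 h replicates 1 and 2 the same description, but their counts differed by 9.28 times the sampling variance, within the 4.08 to 10.7 of the other replicate pairs, and both were kept. The summed level of 15 macrophage markers in 1 h replicate 4 was 614 CPM (read counts scaled to library size), against 266 to 430 in the other libraries at 1 h and 293 to 370 at 0 h. None of these 15 genes passed edgeR's test (0 by DESeq2, and 1 higher at an unadjusted p under 0.05), and their median log2 fold change was 0.34. In bulk RNA, fewer cells of a type and less RNA per cell cannot be told apart. The same library had the highest summed markers of adipocytes (135 CPM against 90.0 to 115 in the other 7) and of chondrocytes and bone cells (146 CPM against 59.2 to 106). Among markers of 9 cell types other than macrophages, 1 gene passed the test, the cartilage factor Sox9 (log2 0.25 ± 0.084, adjusted p = 0.0436), which DESeq2 did not call. The part of these cells in the results was not tested. The tenocyte markers Scx, Mkx, Tnmd, Col1a1, Col1a2 and Col3a1 were read in every library, with Col1a1 at 22135 to 34566 CPM.

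Within 1 h, 2068 of the 13708 genes tested (15.1%) passed an adjusted p of 0.05, with 1208 higher (8.81%) and 860 lower (6.27%). Most changes were small: 1589 of the 2068, or 76.8%, differed by less than 1.5-fold. A change of at least 2-fold was reached by 81 genes that rose (0.591% of those tested) and 86 that fell (0.627%). The median log2 fold change over all genes tested was −0.0065. In 1757 of the 2068 called genes (85.0%) the 4 libraries at 1 h did not overlap the 4 at 0 h, while 1513 of all genes tested (11.0%) lay above and 1019 (7.43%) below without overlap, 2532 in all (18.5%). Without 1 h replicate 4, 1865 genes were called, 1111 higher and 754 lower. In that fit, 15 immediate early list genes, 19 cholesterol genes and 21 ribosome biogenesis factors rose (15, 19 and 22 with it), and 18 FoxO list genes fell (20 with it). Fitted together with all 20 libraries, 1533 were called, 973 higher and 560 lower. The authors' deposited table for the same comparison holds 1518 genes at an adjusted p under 0.05, of which 1477 were also called here. These are 97.3% of their list and 71.4% of the present one, and none differed in direction. Their table holds 12207 genes, so the 2 sets of genes are not the same. Some genes called here and named below were far from called there, such as Vcl (deposited FDR 0.302), Fmod (0.408), Notch2 (0.422) and Tnc (0.713).

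**Figure D1:**
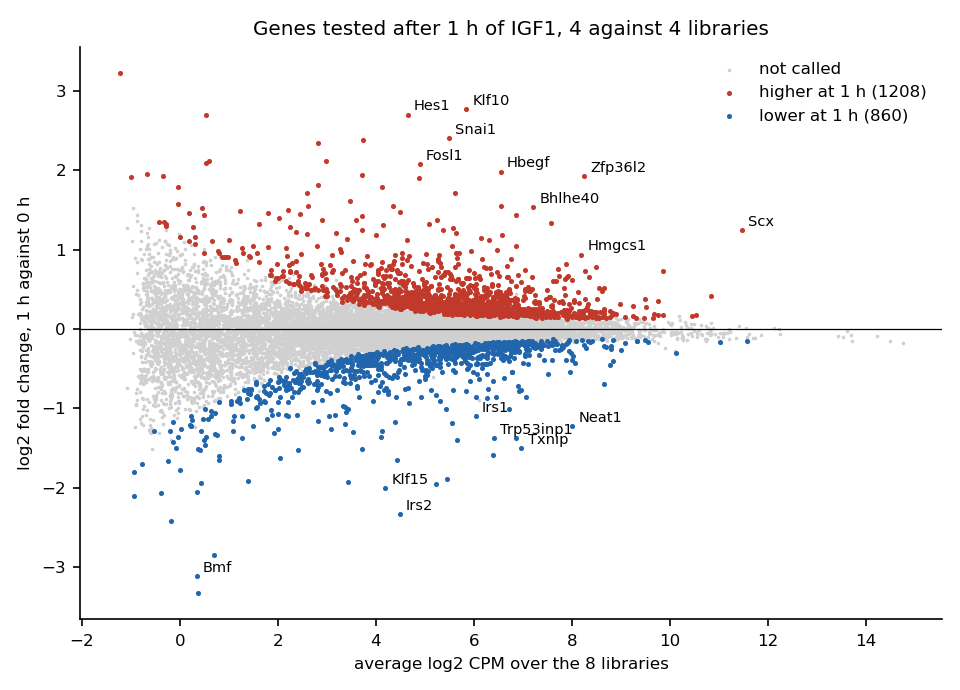
Each point is 1 of the 13708 genes tested, with the average log2 CPM over the 8 libraries on the horizontal axis and the log2 fold change at 1 h against 0 h on the vertical axis. Red points (1208) passed the test as higher and blue points (860) as lower, grey points did not pass, and most coloured points lie within 1.5-fold of no change.

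Among named genes of at least 5 CPM in the higher group, the 3 steepest rises were in genes for transcriptional repressors. Klf10, a Krüppel-like repressor (ENSMUSG00000037465, chromosome 15, 38291463 to 38300706, minus strand), stood at 12.9, 16.3, 13.0 and 18.2 CPM in the libraries at 0 h and at 98.2, 107, 105 and 103 CPM at 1 h. The groups were far apart and varied little within themselves, with a 6.85-fold change of means (log2 2.76 ± 0.084, adjusted p = 1.05e-18). Hes1, a repressor best known as a target of Notch receptors (ENSMUSG00000022528, chromosome 16, 30064384 to 30067796, plus strand), was read at 6.11, 9.28, 6.11 and 6.20 CPM before and at 47.7, 48.9, 41.5 and 42.8 CPM after IGF1. The 0 h replicate 2 was the highest of its group, still far under the lowest library at 1 h, and the mean rose 6.53-fold (log2 2.70 ± 0.11, adjusted p = 3.81e-16). Snai1, a zinc finger repressor of epithelial genes, went from 16.3, 13.5, 14.6 and 14.8 CPM to 73.0, 73.1, 84.8 and 83.7 CPM (log2 2.40 ± 0.078). Bhlhe40, which represses clock genes among others, rose by 1.54 ± 0.057 on the log2 scale, from 78.3 ± 6.39 to 229 ± 9.51 CPM (SD, n = 4). Of 24 tested members of the list of Krüppel-like and other early response factors, 8 rose (33.3%, against 8.81% of all genes tested) and 8 fell (33.3%, against 6.27%). The other 8 did not pass, and the median of the list was −0.08. The lowest were Klf15 and Klf11 (−1.35 ± 0.11), and 5 rather than 8 members were called lower in the fit of all 20 libraries.

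Of the 21 tested members of the immediate early transcription factor list, 15 rose and 0 fell (0 by DESeq2, and 0 at an unadjusted p under 0.05), with a median log2 fold change of 0.67. The 15 are 71.4% of the list, against 8.81% higher among all genes tested. Arc, a list member that encodes no transcription factor, is induced by synaptic activity and by growth factors. It rose from 4.43 ± 0.969 to 23.3 ± 1.40 CPM, and its libraries at 1 h lay between 21.4 and 24.7 CPM. The zinc finger factor Egr3 rose from 2.38 ± 0.470 to 12.2 ± 1.71 CPM (log2 2.35 ± 0.17) and its relative Egr2 from 2.93 ± 0.294 to 9.68 ± 1.72 CPM (log2 1.71 ± 0.17). Every library at 1 h lay above every library at 0 h for all 3 genes. The AP-1 subunit Fosl1 was at 12.0, 14.0, 10.0 and 11.0 CPM and then at 50.8, 46.7, 50.2 and 51.8 CPM (log2 2.07 ± 0.090). Because 57.2% of the exonic bases of Fosl1 overlap Ccdc85b on the opposite strand and the use of strand in counting is not given in the sources used here, reads of this pair cannot be told apart. The nuclear receptor Nr4a3 (1.81 ± 0.17) and the AXUD1 family factor Csrnp1 (1.61 ± 0.13) also rose, and Egr1 rose from 28.6 ± 2.76 to 69.6 ± 7.70 CPM (log2 1.27 ± 0.081).

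The founding members of the immediate early class were among the 6 that did not pass, and they are named here because their values were seen. Fos, the classical AP-1 gene, was low throughout, at 2.64, 3.25, 3.88 and 2.46 CPM before and 4.39, 3.97, 4.31 and 5.44 CPM after (log2 0.56 ± 0.20, adjusted p = 0.0633). Its 4 libraries at 1 h lay above those at 0 h although the test was not passed, and the adjusted p was 0.0341 without 0 h replicate 3. Fosb was at 2.41 ± 0.366 and 2.49 ± 0.469 CPM and Nr4a2 at 2.46 ± 0.381 and 2.56 ± 0.372 CPM. Myc, the growth-promoting bHLH factor, was at 43.9 ± 2.71 and 44.5 ± 2.19 CPM (log2 0.01 ± 0.068, adjusted p = 0.967), and Jund (−0.05) and Ier5 (−0.06) did not pass either. Mnt, which binds the same partner as Myc and acts as its antagonist, fell from 58.4 ± 4.90 to 29.3 ± 4.76 CPM (log2 −1.01 ± 0.091), a gene also chosen after its value was seen.

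The promoters of Egr2 and Maff are shown because they hold elements known from the control of this class, the serum response element (CArG box) in Egr2 and the cAMP response element TGACGTCA in Maff, a small MAF factor that rose from 54.3 ± 4.09 to 81.1 ± 2.29 CPM. They hold the 250 bases before the RefSeq start on mm10 (GRCm38.p6), plus strand, with the element in capitals. The Egr2 window is chr10:67537316-67537565 and the Maff window chr15:79347270-79347519.
Egr2: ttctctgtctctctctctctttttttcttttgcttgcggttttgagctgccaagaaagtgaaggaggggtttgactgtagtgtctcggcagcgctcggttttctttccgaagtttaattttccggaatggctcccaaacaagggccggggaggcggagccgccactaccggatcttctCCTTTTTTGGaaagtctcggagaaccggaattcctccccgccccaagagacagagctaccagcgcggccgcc
Maff: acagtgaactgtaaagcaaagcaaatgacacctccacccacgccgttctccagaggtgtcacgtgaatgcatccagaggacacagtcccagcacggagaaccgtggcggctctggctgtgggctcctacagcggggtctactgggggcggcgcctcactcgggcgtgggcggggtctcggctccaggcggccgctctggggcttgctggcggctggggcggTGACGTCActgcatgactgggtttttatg
The element begins 72 bases before the start in Egr2 and 29 bases before it in Maff. A CArG box was found in 2 of 10 immediate early risers with a RefSeq window, Egr2 and Srf, against 1.58% of all tested genes with a window. A cAMP response element was found in 1 of these 10, against 3.69% of tested genes. Both counts cover 250 bases before to 50 after a start. With only the 250 before it they stayed at 2 and 1 of 10, against 1.41% and 3.14% of tested genes. List members that did not rise were not counted, so list membership and the rise cannot be told apart here.

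**Figure D2:**
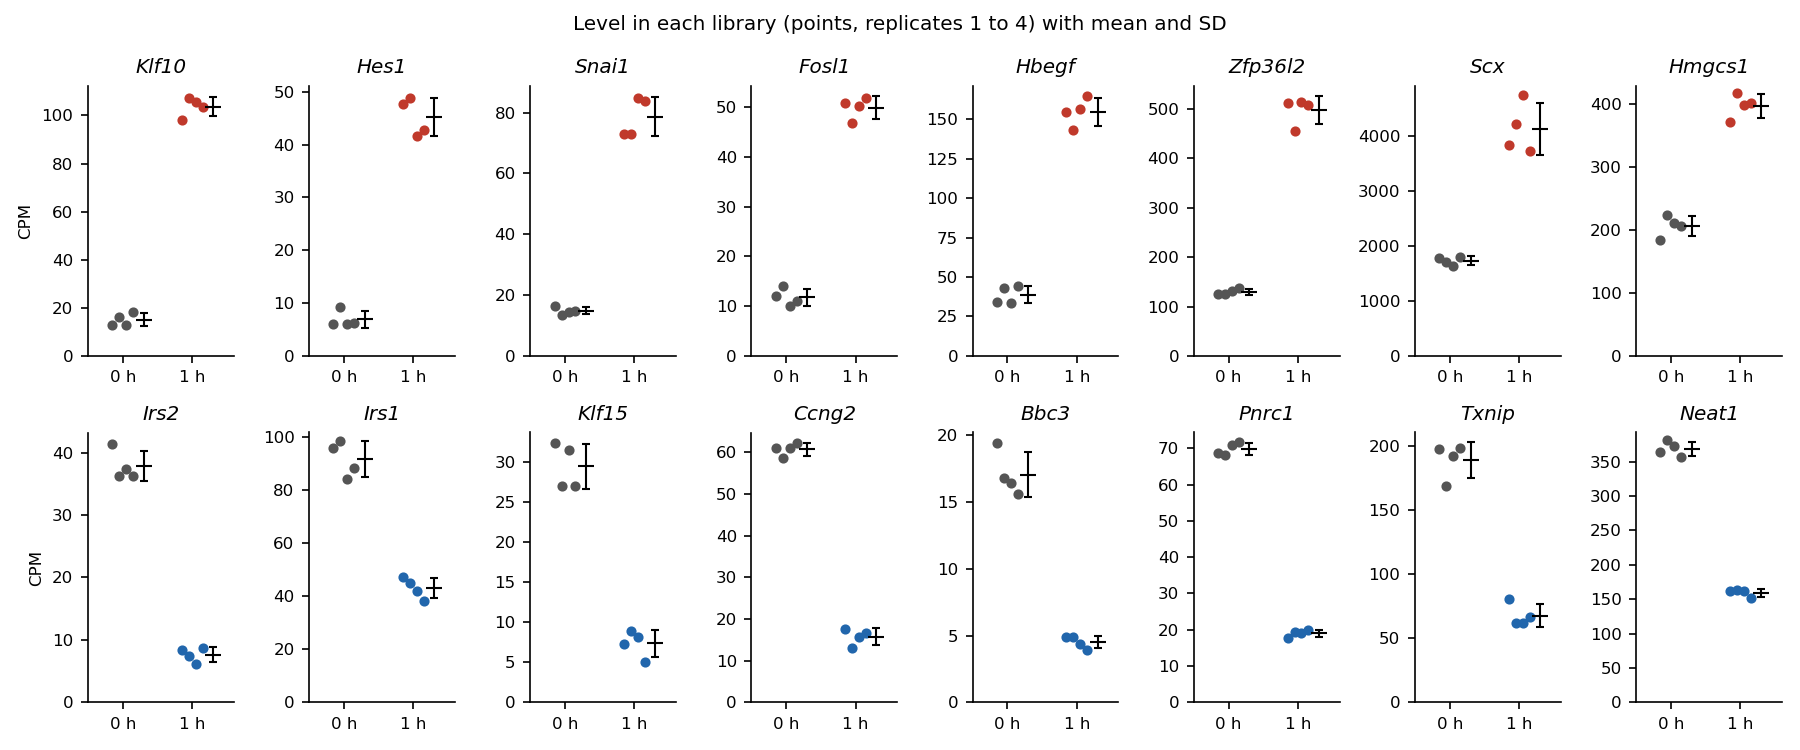
Each panel shows 1 gene in CPM, with a point for each of the 4 libraries at 0 h (grey) and at 1 h (red for risers, blue for fallers) and the mean with its SD beside the points. In none of the 16 genes do the libraries of the 2 times overlap, for example 98.2 to 107 CPM against 12.9 to 18.2 CPM in Klf10 and 6.09 to 8.66 CPM against 36.3 to 41.4 CPM in Irs2.

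Feedback regulators of the ERK cascade were called in both directions. Of 19 tested, 8 rose (42.1%, against 8.81% of all genes tested) and 3 fell (15.8%, against 6.27%), with a median of 0.28. Spry4, a Sprouty inhibitor of receptor tyrosine kinase signalling, was at 6.90, 11.7, 6.71 and 7.33 CPM before and at 26.7, 27.0, 29.0 and 30.1 CPM after (log2 1.78 ± 0.13, adjusted p = 2.57e-10). The 0 h replicate 2 was again the highest of its group and the groups did not overlap. Errfi1, an inhibitor of EGF receptor family kinases, rose from 23.5 ± 3.02 to 77.5 ± 7.16 CPM (1.71 ± 0.084). Phlda1 (1.45 ± 0.16) and the ERK phosphatase gene Dusp5 (1.37 ± 0.16) also rose. Dusp1, the phosphatase for p38 and JNK as well as ERK, went the other way, from 70.6, 69.3, 62.9 and 62.5 CPM to 30.5, 33.5, 26.8 and 26.7 CPM (log2 −1.19 ± 0.075, adjusted p = 1.76e-12). Spry2 was lower by less than its relative Spry4 rose (−0.31 ± 0.083, adjusted p = 0.00963), and its adjusted p was 0.0514 without 0 h replicate 4 and 0.0504 without 1 h replicate 2.

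A related layer acts on messenger stability. Of 11 tested genes of mRNA decay and antiproliferative early response, 6 rose (54.5%, against 8.81% of all genes tested) and 3 fell (27.3%, against 6.27%). The median of the list was 0.30. Zfp36l2, which binds AU-rich elements and promotes decay, was at 125, 126, 131 and 138 CPM and then at 513, 455, 515 and 508 CPM (log2 1.93 ± 0.051, adjusted p = 1.85e-20). The 1 h replicate 2 was the lowest of its group and far above every library at 0 h. Its relatives Zfp36 (0.66 ± 0.093) and Zfp36l1 (0.58 ± 0.093) and the ribonuclease gene Zc3h12a (0.92 ± 0.11) also rose. The 3 that fell were Gadd45a (−0.77 ± 0.073), Btg1 (−0.48 ± 0.085) and Gadd45b (−0.22 ± 0.070). The call of Gadd45b was lost in 4 of 15 alternative fits, with an adjusted p of 0.0879 to 0.130 without 0 h replicates 1 or 2 or 1 h replicate 3. In Gadd45a, 19.1% of exonic bases overlap an unnamed antisense gene. Smaller overlaps with a gene on the other strand were found in Paics (8.67%), Mcm7 (7.25%), Cry2 (4.67%), Zfp36 (3.60%), Ereg (3.42%), Srebf1 (1.93%), Dusp1 (0.332%) and Nop56 (0.122%).

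Among 24 secreted growth factors and cytokines, 8 rose (33.3%, against 8.81% of all genes tested) and 1 fell (4.17%, against 6.27%), with a median of 0.10. Hbegf, a membrane-shed ligand of the EGF receptor, was at 34.4, 43.1, 33.7 and 44.5 CPM and then at 155, 143, 157 and 165 CPM (log2 1.98 ± 0.077, adjusted p = 5.83e-15). A second ligand of the same receptor, Ereg, rose from 30.8 ± 5.03 to 71.7 ± 7.90 CPM (1.21 ± 0.10). Lif, a cytokine of the interleukin 6 family, was at 6.53 to 7.53 CPM before and at up to 21.3 CPM after, without overlap (1.37 ± 0.12). Socs3, the feedback inhibitor of that cytokine family's receptors, rose from 59.7 ± 5.58 to 136 ± 15.7 CPM (1.18 ± 0.074), a gene outside the naming rule. The 1 that fell was the matricellular gene Cyr61 (−0.45 ± 0.12, adjusted p = 0.0381), whose call was lost in 7 of 15 alternative fits. Without 0 h replicates 1, 2 or 4 or 1 h replicates 2 or 4 its adjusted p was 0.0644 to 0.137.

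Several chemokine genes rose in the same hour. Of 22 chemokines and NF-kB targets, 9 rose (40.9%, against 8.81% of all genes tested) and 1 fell (4.55%, against 6.27%), with a median of 0.19. Ccl2, which attracts monocytes, was at 53.9, 67.5, 70.9 and 66.9 CPM before and at 161, 159, 183 and 204 CPM after (log2 1.44 ± 0.094). Its neighbour Ccl7 on chromosome 11 went from 49.6 ± 2.88 to 145 ± 8.95 CPM (1.54 ± 0.060). The neutrophil chemokine Cxcl1 (1.40 ± 0.20), the prostaglandin synthase Ptgs2 (1.15 ± 0.13) and the atypical NF-kB inhibitor family member Bcl3 (1.55 ± 0.15) also rose. The highest library for Ccl2 and Ccl7 was 1 h replicate 4, the one with the most macrophage marker counts. Without it the log2 fold changes were 1.36 for Ccl2 and 1.50 for Ccl7, and 8 members of the list were called higher and 2 lower. The single faller, Nfkbiz (−0.31 ± 0.088, adjusted p = 0.0148), did not pass without 1 h replicate 2 (adjusted p = 0.0739) or without 1 h replicate 3 (0.0795).

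The receptor gene and the gene of its own ligand did not pass the test, whereas the adaptors below the receptor fell. Igf1r was read at 171, 213, 179 and 203 CPM and then at 190, 192, 168 and 159 CPM, which overlap (log2 −0.12 ± 0.066, adjusted p = 0.257). Igf1 itself was at 195 ± 12.4 and 193 ± 12.1 CPM (−0.03 ± 0.054, adjusted p = 0.82). Irs2 (ENSMUSG00000038894, chromosome 8, 10984681 to 11008458, minus strand) was at 41.4, 36.3, 37.3 and 36.3 CPM before and at 8.37, 7.42, 6.09 and 8.66 CPM after. Its lowest library at 0 h was thus above 4 times its highest at 1 h, with a log2 fold change of −2.33 ± 0.10 (adjusted p = 8.58e-16). Irs1 went from 95.8, 98.6, 84.1 and 88.2 CPM to 47.3, 44.8, 41.8 and 38.3 CPM (log2 −1.10 ± 0.068, adjusted p = 1.26e-12). Pik3ip1, a membrane inhibitor of PI3 kinase, fell as well (−0.86 ± 0.083), as did the kinase Sgk1 (−0.61 ± 0.076). Insr, the insulin receptor, was lower by −0.23 ± 0.060 (adjusted p = 0.00715), with an adjusted p of 0.124 in the fit of all 20 libraries. In all, 4 of 42 signalling components rose and 7 fell (4 in that fit), with a median of −0.03. These are 9.52% higher, near the background of 8.81%, and 16.7% lower, against 6.27%. Those that rose were the mTORC1 inhibitor Ddit4 (0.78 ± 0.075), the pseudokinases Trib2 (0.58 ± 0.097) and Trib1 (0.50 ± 0.13), and the AKT phosphatase Phlpp2 (0.41 ± 0.079). The adjusted p of Trib1 was 0.0633 without 1 h replicate 1, and 0.0843 and 0.0501 in the fits of 20 and 16 libraries.

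The FoxO list had the lowest median of the 33 gene lists. Of 29 tested factors and targets, 20 fell and 2 rose, with a median log2 fold change of −0.50. The 20 are 69.0% of the list, against 6.27% lower among all genes tested. The 2 risers were the decay factor Zfp36l2 and the pseudokinase Trib2. Klf15, a Krüppel-like factor of fasting metabolism, was at 32.3, 27.0, 31.4 and 27.0 CPM and then at 7.24, 8.92, 8.15 and 5.06 CPM (adjusted p = 1.75e-12). Ccng2, an atypical cyclin linked to growth arrest, went from 61.0, 58.5, 61.1 and 62.3 CPM to 17.7, 13.0, 15.8 and 16.6 CPM (−1.96 ± 0.081, adjusted p = 2.07e-16). For both genes the lowest library at 0 h was over 3 times the highest at 1 h. The coregulator gene Pnrc1 (−1.88 ± 0.068) and Txnip (−1.50 ± 0.077), whose product limits glucose uptake and binds thioredoxin, fell too. The cell cycle inhibitor Cdkn1b, or p27, fell from 74.6 ± 5.43 to 43.8 ± 2.46 CPM (−0.78 ± 0.066). Fbxo32, a ubiquitin ligase of muscle atrophy, was at 15.9 to 18.3 CPM before and at 8.55, 5.64, 6.78 and 6.32 CPM after (−1.30 ± 0.13, adjusted p = 9.74e-09). In the fit of all 20 libraries its adjusted p was 0.0676. The second atrophy ligase, Trim63, was low and less separate, at 5.87 ± 0.853 and 3.54 ± 1.06 CPM (−0.74 ± 0.20, adjusted p = 0.0119). Its adjusted p was 0.0513 without 0 h replicate 1 and 0.0572 without 1 h replicate 2. Of the factors themselves, Foxo3 fell by 0.28 ± 0.061 on the log2 scale, and Foxo1 was at 24.0 ± 3.12 and 24.4 ± 2.64 CPM (adjusted p = 0.932).

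The promoters of Bbc3 and Trim63 are shown since they hold the FoxO site TGTTTAC, in capitals, within the 250 bases before the RefSeq start on mm10 (GRCm38.p6), plus strand. The Bbc3 window is chr7:16310011-16310260 and the Trim63 window chr4:134314870-134315119.
Bbc3: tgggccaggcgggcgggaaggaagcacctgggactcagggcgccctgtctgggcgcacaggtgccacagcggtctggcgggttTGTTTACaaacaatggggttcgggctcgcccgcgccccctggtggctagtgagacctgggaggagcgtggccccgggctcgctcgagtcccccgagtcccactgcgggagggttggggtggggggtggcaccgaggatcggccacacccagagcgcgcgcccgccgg
Trim63: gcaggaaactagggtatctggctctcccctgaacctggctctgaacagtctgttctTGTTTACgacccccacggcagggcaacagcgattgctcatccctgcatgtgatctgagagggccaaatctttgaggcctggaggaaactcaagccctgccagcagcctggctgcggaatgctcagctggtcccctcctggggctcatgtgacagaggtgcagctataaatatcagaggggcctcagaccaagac
The site begins 167 bases before the start in Bbc3 and 194 bases before it in Trim63. Of the 17 fallers of the FoxO list with a window, 4 held the site (Bbc3, Sesn1, Trim63 and Txnip), against 3.12% of all tested genes and 3.65% of all windows in the table. In the 250 bases before the start alone, 3 of 17 held it, against 2.72% of all tested genes. Members of this list that did not fall were not counted, so list membership and the fall cannot be told apart here.

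Among 19 tested regulators of apoptosis, BCL2 family included, 4 fell (21.1%, against 6.27% of all genes tested). In the same list 0 rose (0 by DESeq2, and 2 at an unadjusted p under 0.05), and the median was −0.04. Bmf, a BH3-only activator of cell death, was at 2.69, 1.42, 2.67 and 1.51 CPM and then at 0.119, 0.230, 0.321 and 0.253 CPM. The libraries did not overlap, but the counts at 1 h were few, so the fitted log2 fold change of −3.11 ± 0.42 is imprecise. Bbc3, the BH3-only protein PUMA (ENSMUSG00000002083, chromosome 7, 16308393 to 16318205, plus strand), was at 19.4, 16.8, 16.4 and 15.6 CPM before and at 4.87, 4.89, 4.40 and 3.92 CPM after (−1.93 ± 0.13, adjusted p = 4.57e-12). The other 2 fallers, Birc2 (−0.38 ± 0.083) and Xiap (−0.31 ± 0.071), encode inhibitors of apoptosis. Of 20 p53 targets, 7 rose (35.0%, against 8.81% of all genes tested) and 6 fell (30.0%, against 6.27%). Plk3 (1.32 ± 0.088), Plk2 (0.67 ± 0.087) and the cell cycle inhibitor Cdkn1a (0.47 ± 0.046) were among the risers, and Trp53inp1 fell from 125 ± 10.5 to 48.6 ± 4.78 CPM (−1.38 ± 0.069).

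**Figure D3:**
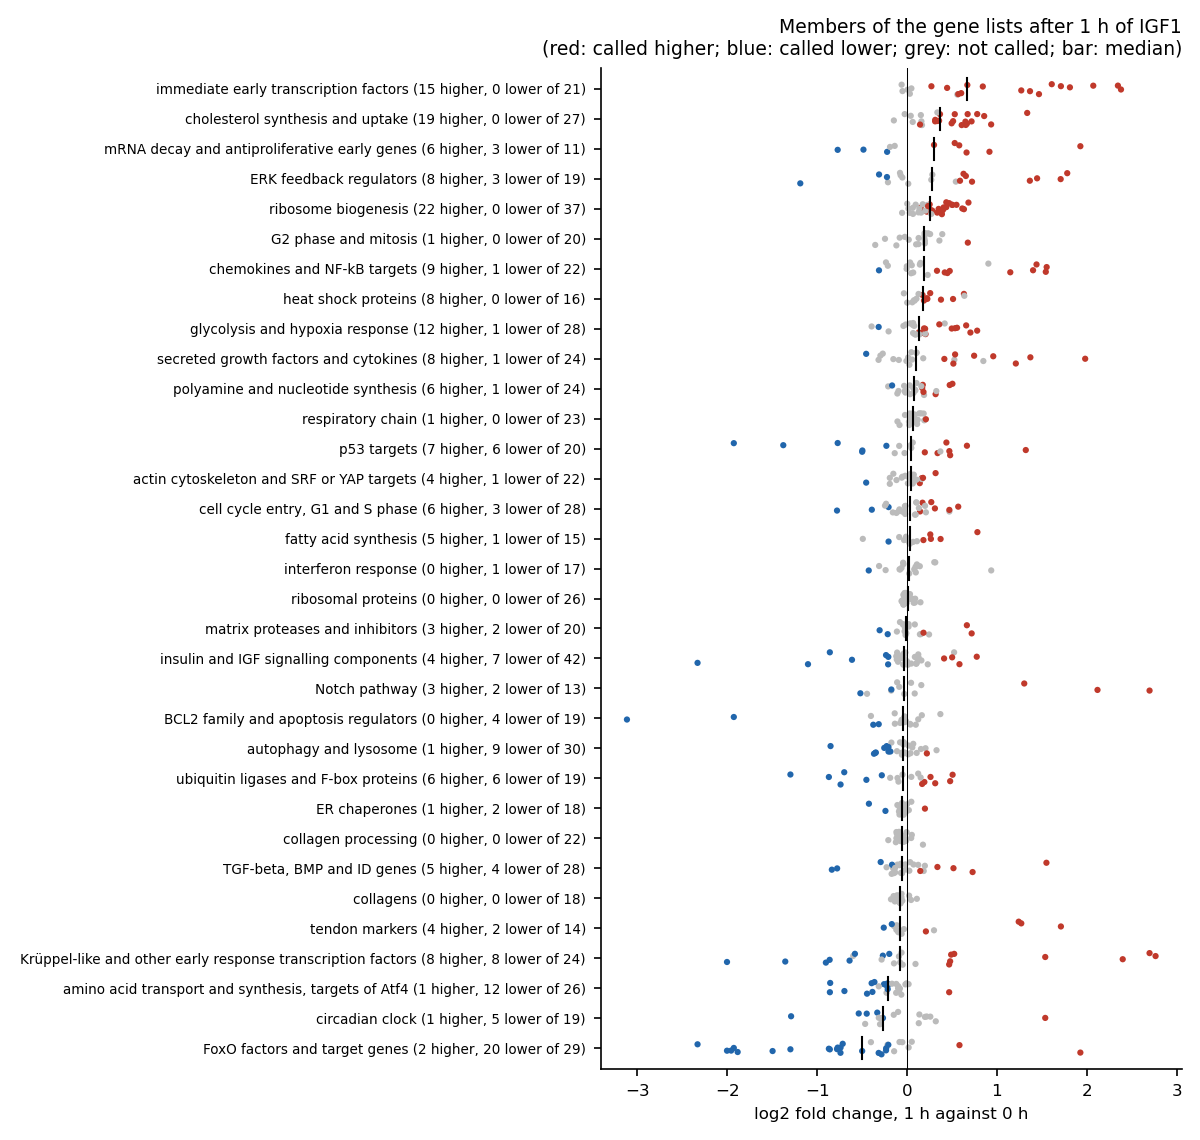
Each row is 1 of 33 gene lists, each point 1 tested member at its log2 fold change for 1 h against 0 h, and the black bar the median, with members called higher in red, called lower in blue and not called in grey. The immediate early list is at the top (median 0.67) and the FoxO list at the bottom (median −0.50), while the collagen and ribosomal protein lists hold no coloured point.

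Notch pathway genes changed in opposite directions. Of 13 tested members, 3 rose (23.1%, against 8.81% of all genes tested) and 2 fell (15.4%, against 6.27%), with a median of −0.03. Besides Hes1, the glycosyltransferase gene Lfng, which modifies Notch receptors, rose from 3.33, 3.30, 2.40 and 3.08 CPM to 16.1, 13.5, 12.5 and 11.1 CPM (log2 2.12 ± 0.15, adjusted p = 3.74e-11). Notch1 rose from 10.9, 10.3, 9.93 and 10.7 CPM to 23.1, 21.2, 33.7 and 25.9 CPM (1.30 ± 0.12), and 7.50% of its exonic bases overlap an unnamed antisense gene. The ligand Jag1 fell from 39.2 ± 0.751 to 27.6 ± 5.10 CPM (−0.52 ± 0.091). Notch2 was lower by −0.17 ± 0.055, and its call was lost in 6 of 15 alternative fits. In 5 of those, the ones without 0 h replicates 2 or 4 or 1 h replicates 2, 3 or 4, its adjusted p was 0.0589 to 0.132. In the TGF-beta, BMP and ID list, 5 of 28 members rose (17.9%, against 8.81% of all genes tested) and 4 fell (14.3%, against 6.27%). The risers were 3 rather than 5 without 0 h replicate 3 and without 1 h replicate 2. Id1, an inhibitor of basic helix-loop-helix factors, rose from 10.6 ± 0.845 to 31.5 ± 1.62 CPM (1.55 ± 0.092). The corepressor Tgif1 (−0.84 ± 0.071) and the BMP antagonist Nog (−0.78 ± 0.12) fell.

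Of 27 tested genes of cholesterol synthesis and uptake, 19 rose and 0 fell (0 by DESeq2, and 1 at an unadjusted p under 0.05), with a median of 0.37. The 19 are 70.4% of the list, against 8.81% higher among all genes tested. Hmgcs1, a synthase of the early pathway, went from 184, 223, 212 and 206 CPM to 372, 417, 398 and 401 CPM (log2 0.94 ± 0.053, adjusted p = 1.85e-13). The groups did not overlap. In Hmgcs1, 12.1% of exonic bases overlap an unnamed antisense gene. The isomerase Idi1 (0.86 ± 0.10), the sterol transporter Stard4 (0.78 ± 0.058) and the reductase Hsd17b7 (0.72 ± 0.065) followed. In fatty acid synthesis 5 of 15 members rose (33.3%, against 8.81% of all genes tested) and 1 fell (6.67%, against 6.27%). Fasn, the fatty acid synthase, rose from 272 ± 20.4 to 472 ± 50.2 CPM (0.78 ± 0.066), and the desaturases Scd2 (0.37 ± 0.045) and Scd1 (0.26 ± 0.051) by less. The 1 that fell was Srebf1, the lipid synthesis factor (−0.21 ± 0.067, adjusted p = 0.0361), which did not pass in 6 of 15 alternative fits. Those without 0 h replicates 1 or 4 or 1 h replicates 1, 2 or 4 gave an adjusted p of 0.0533 to 0.159.

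The promoter of Hmgcs1 is shown because it holds the sterol regulatory element core CACCCCAC, in capitals. The window covers the 250 bases before the RefSeq start, chr13:119690101-119690350 on mm10 (GRCm38.p6), plus strand, and the core begins 136 bases before that start.
Hmgcs1: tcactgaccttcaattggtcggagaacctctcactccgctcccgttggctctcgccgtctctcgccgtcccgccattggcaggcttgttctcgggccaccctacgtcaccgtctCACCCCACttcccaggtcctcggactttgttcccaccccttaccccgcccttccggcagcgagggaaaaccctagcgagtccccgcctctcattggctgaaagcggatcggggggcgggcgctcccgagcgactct
Counted over 250 bases before to 50 after a start, the core was found in 2 of 13 cholesterol risers with a window, Hmgcs1 and Acat2. Of all tested genes 3.85% held it. With only the 250 bases before the start these were 2 of 13 and 3.46%. List members that did not rise were not counted, so list membership and the rise cannot be told apart here.

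Of 37 ribosome biogenesis factors, 22 rose (59.5%, against 8.81% of all genes tested), with a median of 0.26 over the list. In it 0 fell (0 by DESeq2, and 0 at an unadjusted p under 0.05). Ppan, a factor of large subunit assembly, rose from 32.6 ± 0.904 to 52.7 ± 2.57 CPM (log2 0.68 ± 0.065), its libraries at 1 h lying between 49.2 and 55.4 CPM. The snoRNP protein gene Nop56 (0.63 ± 0.056), Grwd1 (0.61 ± 0.083) and the polymerase I subunit gene Polr1b (0.51 ± 0.093) also rose. Of 26 ribosomal protein genes, 0 passed (0 by DESeq2, and 1 higher at an unadjusted p under 0.05), and their log2 fold changes ranged from −0.06 to 0.15. Heat shock genes rose in 8 of 16 cases and fell in 0 (0 by DESeq2, and 0 at an unadjusted p under 0.05), led by the cochaperone Dnajb1 (0.63 ± 0.070). Of 18 members of the ER chaperone list, not all of them chaperones, 1 rose, the factor Xbp1 (0.20 ± 0.049), and 2 fell, Herpud1 (−0.42 ± 0.050) and Dnajb9 (−0.24 ± 0.076). That is 5.56% higher against 8.81% of all genes tested, and 11.1% lower against 6.27%. The call of Dnajb9 was lost in 6 of 15 alternative fits, with an adjusted p of 0.0502 to 0.176 without 0 h replicates 2, 3 or 4 or 1 h replicates 1 or 2.

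Of 28 glycolysis and hypoxia genes, 12 rose (42.9%, against 8.81% of all genes tested) and 1 fell (3.57%, against 6.27%), with a median of 0.13. Pfkfb3, whose product activates phosphofructokinase, rose from 30.6 ± 0.893 to 52.8 ± 5.30 CPM (log2 0.78 ± 0.074), hexokinase 2 (Hk2) from 82.3 ± 2.72 to 131 ± 5.41 CPM (0.66 ± 0.053) and the angiogenic factor Vegfa from 97.7 ± 6.48 to 143 ± 5.10 CPM (0.53 ± 0.055). The 1 faller, the pyruvate dehydrogenase kinase Pdk4 (−0.32 ± 0.10, adjusted p = 0.0303), lost its call in 8 of 15 alternative fits. Its adjusted p was 0.0586 to 0.0935 without 0 h replicates 1, 2 or 3 or 1 h replicates 2 or 4. Of 26 genes of amino acid transport and synthesis that Atf4 controls, 12 fell (46.2%, against 6.27% of all genes tested) and 1 rose (3.85%, against 8.81%). The median of the list was −0.21. The glutamine transporter Slc38a2 fell from 503, 504, 540 and 498 CPM to 316, 323, 319 and 314 CPM (−0.70 ± 0.044, adjusted p = 1.69e-12). Chac1 (−0.86 ± 0.067) and Trib3 (−0.85 ± 0.099), both induced by amino acid or ER stress, also fell, and Cebpb rose (0.47 ± 0.10). In Cebpb, 20.7% of exonic bases overlap Tmem189 on the other strand. Of 30 autophagy and lysosome genes, 9 fell (30.0%, against 6.27% of all genes tested) and 1 rose (3.33%, against 8.81%). Atg14, a subunit of the autophagy PI3 kinase complex, fell from 16.4 ± 0.830 to 9.20 ± 1.47 CPM (−0.85 ± 0.12), and the initiating kinase Ulk1 fell by 0.37 ± 0.065 on the log2 scale. The 1 riser was the lysosomal factor Tfe3 (0.22 ± 0.062), whose adjusted p was 0.0526 without 0 h replicate 2 and 0.0764 without 1 h replicate 3.

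Among 24 polyamine and nucleotide synthesis genes, 6 rose (25.0%, against 8.81% of all genes tested) and 1 fell (4.17%, against 6.27%). The risers were 3 without 0 h replicate 2, 3 or 4 and 2 without 1 h replicate 2. The antizyme inhibitor Azin1 (0.51 ± 0.054) and the decarboxylase Amd1 (0.47 ± 0.094), both of polyamine synthesis, passed in all 15 alternative fits. The faller was the purine synthesis enzyme Paics (−0.17 ± 0.051), which did not pass without 0 h replicates 3 or 4 or 1 h replicate 3.

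Of 19 circadian clock genes, 1 rose (5.26%, against 8.81% of all genes tested) and 5 fell (26.3%, against 6.27%), with a median of −0.27. The repressor Nr1d1, or REV-ERB alpha, was at 27.8, 24.6, 23.7 and 23.9 CPM and then at 11.0, 10.9, 10.0 and 9.29 CPM (log2 −1.29 ± 0.098, adjusted p = 8.71e-11). Its exonic bases overlap Thra on the opposite strand over 8.55% of their length. The related Nr1d2 (−0.54 ± 0.067), Cry2 (−0.33 ± 0.074) and Rora (−0.27 ± 0.052) fell, and so did Per3 (−0.45 ± 0.12), whose adjusted p was 0.0533 without 0 h replicate 4 and 0.0727 without 1 h replicate 3. The riser was Bhlhe40. Without 1 h replicate 4 the risers numbered 4, without 0 h replicate 3 they numbered 3, and in the fit of 16 libraries that leaves out 2 h, 3 members rose and 8 fell.

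Of 19 ubiquitin ligases and F-box proteins, 6 rose (31.6%, against 8.81% of all genes tested) and 6 fell (31.6%, against 6.27%). The risers numbered 3 without 0 h replicate 3 or without 1 h replicate 2. Klhl24 fell from 102 ± 4.38 to 56.2 ± 4.20 CPM (−0.87 ± 0.060), and the hypoxia-linked ligase Siah2 rose (0.51 ± 0.091). The long noncoding RNA Neat1, the scaffold of nuclear paraspeckles, was at 363, 381, 373 and 357 CPM and then at 161, 163, 162 and 151 CPM (−1.22 ± 0.045, adjusted p = 1.69e-17). Pim1, a serine/threonine kinase gene induced by cytokines, fell from 33.0 ± 2.23 to 10.6 ± 1.19 CPM (−1.64 ± 0.095), and the transcription factor Sox4 from 74.4 ± 15.7 to 28.4 ± 3.32 CPM (−1.40 ± 0.15). Socs3 and Pim1, both targets of STAT signalling, thus moved in opposite directions.

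Scx, the basic helix-loop-helix factor that marks the tendon lineage (ENSMUSG00000034161, chromosome 15, 76457452 to 76459458, plus strand), was at 1790, 1713, 1629 and 1805 CPM before and at 3835, 4217, 4757 and 3722 CPM after. The groups were far apart, with a 2.38-fold change of means (log2 1.24 ± 0.060, adjusted p = 1.69e-12). Mkx, a homeobox factor of tendon, was at 221, 212, 239 and 236 CPM and then at 192, 186, 187 and 200 CPM, a small fall without overlap (−0.26 ± 0.050, adjusted p = 0.000438). Tnmd, a membrane protein of mature tenocytes, was at 202 ± 21.4 and 195 ± 23.5 CPM and did not pass (adjusted p = 0.742). Of 14 tendon markers 4 rose (Scx, Egr1, Egr2 and Tnc) and 2 fell (Mkx and Fmod). That is 28.6% higher against 8.81% of all genes tested, and 14.3% lower against 6.27%. The calls of the matrix genes Tnc (0.21 ± 0.059) and Fmod (−0.17 ± 0.055) were lost in 3 and 8 of 15 alternative fits. Tnc had an adjusted p of 0.0813 without 0 h replicate 3, and Fmod one of 0.0536 to 0.145 without 0 h replicates 1, 3 or 4 or 1 h replicates 1, 2 or 4.

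Of 18 collagen genes 0 passed edgeR's test at 1 h (1 was lower by DESeq2, and 2 at an unadjusted p under 0.05), with log2 fold changes from −0.18 to 0.11 and a median of −0.07. Col1a1 was at 34566, 28846, 27676 and 29438 CPM and then at 28892, 27353, 28947 and 22135 CPM (−0.18 ± 0.097, adjusted p = 0.285). The 1 h replicate 4 was its lowest library, and the other 3 at 1 h lay within the range at 0 h or just under it. Col1a2 (−0.15 ± 0.057) had an adjusted p of 0.0833, and of 0.0381 without 1 h replicate 1, and it passed in 3 further alternative fits. Col3a1 was at 2281 ± 35.8 and 2201 ± 122 CPM (−0.06 ± 0.044, adjusted p = 0.388). Of 22 collagen processing genes 0 passed (1 was lower by DESeq2, and 1 higher and 8 lower at an unadjusted p under 0.05). Among 20 matrix proteases and inhibitors 3 rose (15%, against 8.81% of all genes tested) and 2 fell (10%, against 6.27%). Of those called, the urokinase gene Plau (0.67 ± 0.070) and its receptor Plaur (0.72 ± 0.077) were the highest and the aggrecanase Adamts5 (−0.30 ± 0.069) the lowest. The adjusted p of Adamts5 was 0.0729 without 1 h replicate 4.

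Of 22 actin, SRF and YAP genes, 4 rose (18.2%, against 8.81% of all genes tested) and 1 fell (4.55%, against 6.27%), Cyr61. The rises were 0.14 to 0.32 on the log2 scale, and 0 rose in the fit of all 20 libraries. The largest rise was in the focal adhesion gene Vcl (0.32 ± 0.043), of whose exonic bases 25.5% overlap Ap3m1. Of 28 genes of cell cycle entry 6 rose (21.4%, against 8.81% of all genes tested), led by cyclin E1 (Ccne1, 0.57 ± 0.14), and 3 fell (10.7%, against 6.27%). Those were Cdkn1b, the replication helicase subunit Mcm7 (−0.39 ± 0.097) and the kinase inhibitor Cdkn2c (−0.21 ± 0.071), the last with an adjusted p of 0.0997 to 0.157 without 0 h replicates 1, 3 or 4 or 1 h replicates 2 or 3. Among 20 genes of G2 phase and mitosis 1 rose, the kinase Plk1 (0.68 ± 0.20, adjusted p = 0.0211), which was at 0.0523 to 0.0676 without 0 h replicate 3 or 1 h replicates 1 or 3. In the interferon list 1 of 17 fell, Ifit2 (−0.43 ± 0.066). In the respiratory chain 1 of 23 rose, Ndufa4 (0.21 ± 0.071, adjusted p = 0.0465), and its call was lost in 7 of 15 alternative fits, 5 of them without 0 h replicates 1, 3 or 4 or 1 h replicates 2 or 4. These last 3 lists, each with 1 member called in the direction named (1 of 20, 1 of 17 and 1 of 23), lie below the background of 8.81% higher and 6.27% lower genes.

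The genes with the largest changes were short and had few exons. The protein-coding genes at least 2-fold higher had a median span of 8.79 kb and 4 exons, and 56.9% of them spanned under 10 kb. For those at least 2-fold lower the medians were 13.2 kb and 5 exons, with 43.1% under 10 kb. All tested protein-coding genes had medians of 25.3 kb and 9 exons, with 22.7% under 10 kb. Called genes of any size were closer to this background, at 18.9 kb for the risers and 25.4 kb for the fallers. Of the genes at least 2-fold higher 88.9% were protein-coding, of those at least 2-fold lower 59.3%, and of all tested genes 91.9%.

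RefSeq promoter windows, 250 bases before to 50 after a start, matched 48 of the 81 genes at least 2-fold higher, 37 of the 86 at least 2-fold lower and 9576 of the 13708 tested. The 7 motifs were searched on both strands, TGTTTAC (FoxO), CACGTG (E-box), TGANTCA (AP-1), TGACGTCA (cAMP response element), CACCCCAC (sterol core), and the CArG box and NF-kB site by name. The FoxO site was found in 16.2% of the strong fallers with a window, 2.08% of the strong risers and 3.12% of all tested. Besides Bbc3 and Txnip, Pim1 was among the 6 fallers that hold it. The E-box was found in 32.4% of the strong fallers, among them Irs1, Irs2, Klf15, Klf11, Pim1, Mnt, Dusp1 and Bbc3, in 16.7% of the strong risers and in 11.8% of all tested. With only the 250 bases before the start, the E-box share of the risers was 8.33%, against 9.96% of all tested. The FoxO share of the fallers was then 10.8% (4 of 37 genes, 95% interval 4.29% to 24.7%), against 2.72%. The AP-1 site was found in 14.6% of the strong risers, including Csrnp1, Lif and Osgin1, in 5.41% of the strong fallers (2.70% in the shorter window) and in 6.24% of all. An NF-kB site was found in 5 of the 6 risers of the chemokine list with a window, Bcl3 and Cxcl1 included, against 6.32% of all tested genes. In the shorter window these were 4 of 6 and 5.53%. That list was drawn up to hold NF-kB targets, and its members that did not rise were not counted. A share due to list membership thus cannot be told apart from one tied to the rise. These matches describe letters in a window and no factor binding was measured.

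**Figure D4:**
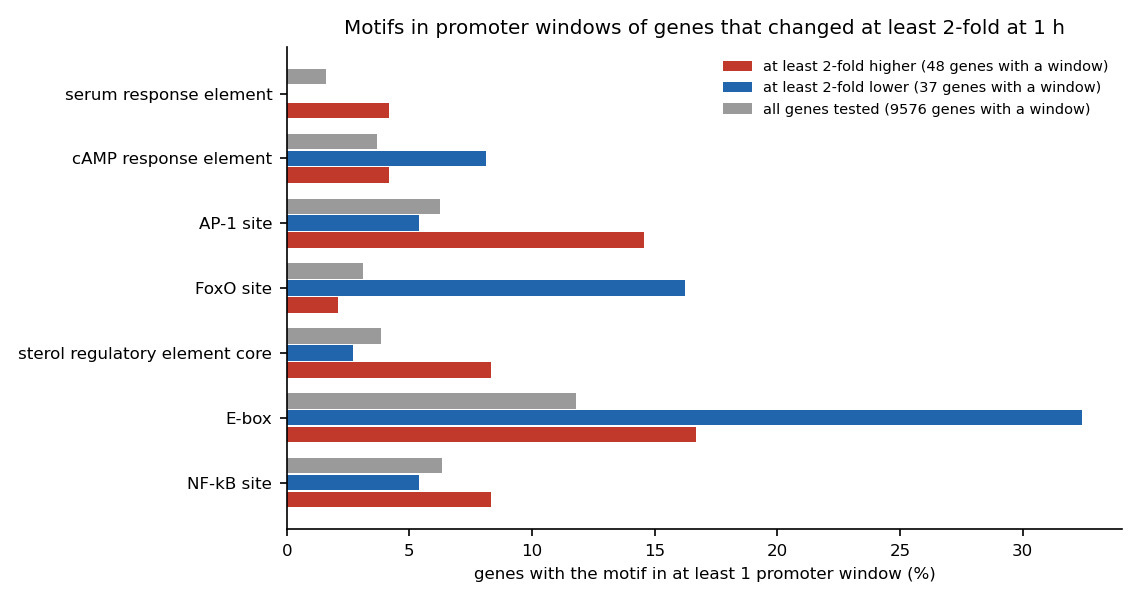
Bars give the percentage of genes with at least 1 promoter window that holds each motif, for genes at least 2-fold higher at 1 h (red, 48 genes with a window), at least 2-fold lower (blue, 37) and all tested genes (grey, 9576). The blue bars for the FoxO site (16.2%) and the E-box (32.4%) are longer than the grey ones (3.12% and 11.8%), and so is the red bar for the AP-1 site (14.6% against 6.24%).

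The levels at the other times say whether 1 h was the turning point, as values only, since all comparisons share the 0 h libraries. Of the 20 strongest risers that the naming rule took, 13 had their highest mean at 1 h and 7 at 2 h. Klf10 was already back to 36.1 CPM at 2 h and stood at 17.2 CPM at 24 h, close to its 15.1 CPM at 0 h. Hes1 went to 21.2 CPM at 2 h, and Lif to 10.1 CPM. Fosl1 (78.1 CPM), Hbegf (170 CPM), Errfi1 (125 CPM), Ccl7 (180 CPM), Bhlhe40 (244 CPM), Osgin1 (27.7 CPM) and Bcl3 (10.6 CPM) had their highest means at 2 h. The libraries at 2 h were at 227, 315, 225 and 210 CPM for Bhlhe40, against a 1 h mean of 229 CPM. For Bcl3 they were at 8.46, 15.1, 9.95 and 8.94 CPM, against 9.43 CPM. The 2 h means of these 2 genes thus depend on 2 h replicate 2. Egr1 stayed up, with 64.8 CPM at 6 h and 62.6 CPM at 24 h.

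Of the 20 strongest, 7 had their lowest mean at 1 h, 12 at 2 h and 1 at 6 h, and at 24 h 16 were still below their 0 h mean. Neat1 was lowest at 1 h and was at 185 CPM at 2 h, 302 CPM at 6 h and 373 CPM at 24 h, against 369 CPM at the start. Irs2 was lowest at 2 h (4.85 CPM) and had reached 12.5 CPM at 24 h, under its 37.8 CPM at 0 h. Bbc3 was at 16.6 CPM and Trp53inp1 at 167 CPM at 24 h, near or above their levels at 0 h.

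**Figure D5:**
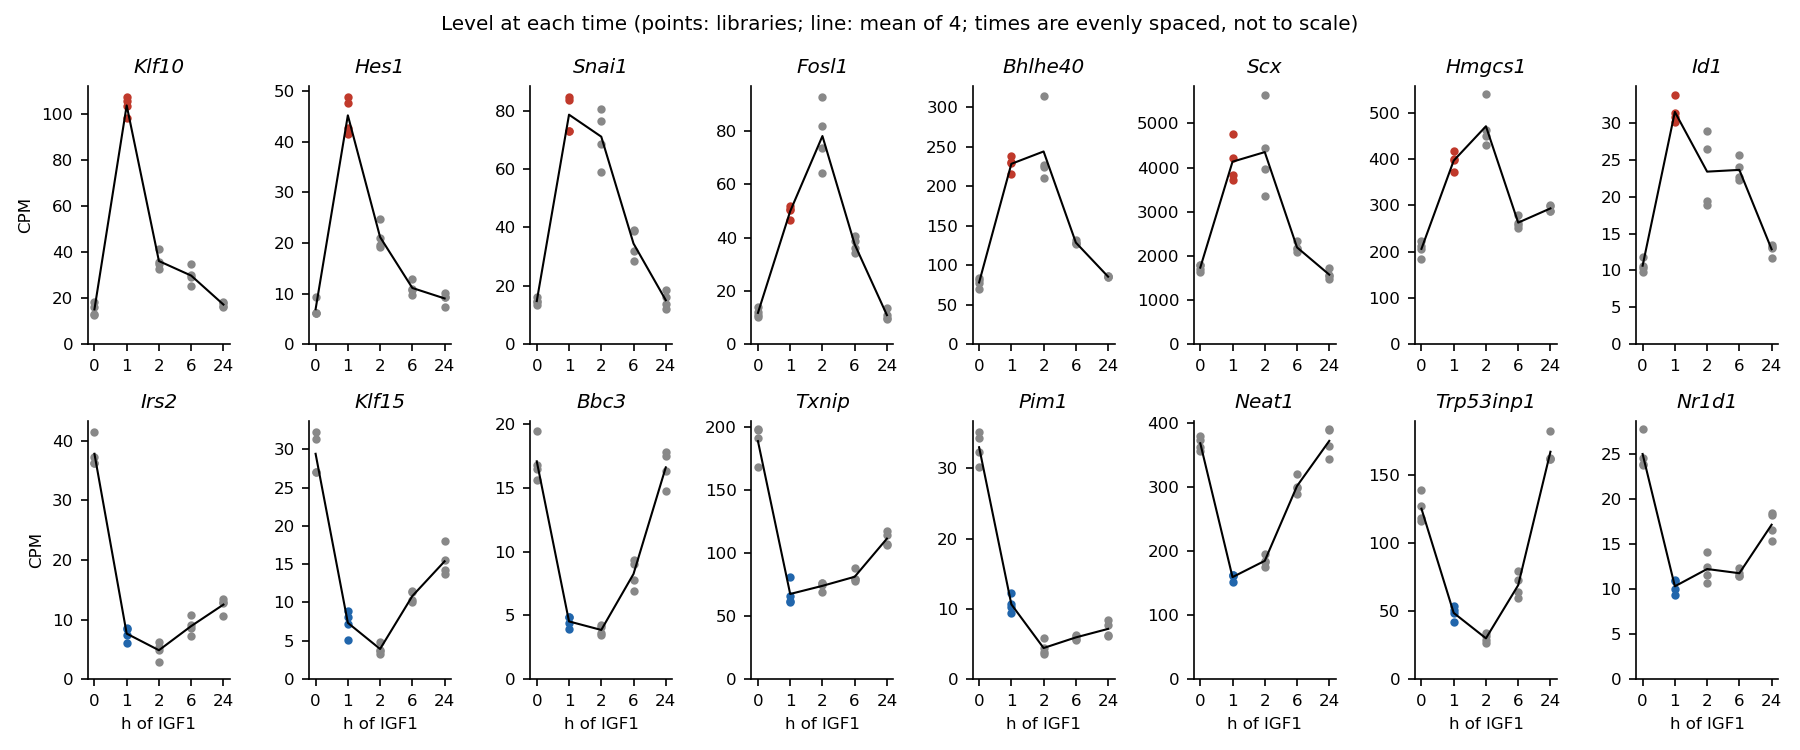
Each panel shows 1 gene in CPM against hours of IGF1 (0, 1, 2, 6 and 24, evenly spaced and not to scale), with a point per library, the 1 h libraries coloured, and a line through the means of 4. The upper row holds genes that were higher at 1 h, such as Klf10, which falls to 36.1 CPM by 2 h, and the lower row genes that were lower, such as Neat1, which is at 302 CPM by 6 h, and Irs2, which is at 12.5 CPM at 24 h.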

How the data were processed

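The deposited table holds whole-number read counts per gene for 20 mouse libraries, of which the 4 at 0 h and the 4 at 1 h were compared. Per the submitters' processing notes, reads were handled with FastQC, STAR and edgeR on mm10, and no source used here names the counting tool, its annotation, its use of strand or any version. The authors' deposited comparison table gives log2 fold changes and p-values with their FDR, per the file headers. Their model and filter are not named in any source used here, and the table was used only beside the present calls.

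Genes were filtered with filterByExpr, which kept 13708 of 29986 genes and 99.89% of counts. They were tested with edgeR 4.0.16 (R 4.3.3) on the 8 libraries, by TMM scaling and robust quasi-likelihood tests, two-sided, with Benjamini-Hochberg adjustment over all genes tested and a threshold of 0.05. Values after a log2 fold change are standard errors from the F statistic, and values after a level are SDs over 4 libraries. Levels are CPM with TMM factors of all 20 libraries, so that all times share a scale, and the change of means in them may differ slightly from the fitted one. Only these 8 libraries entered the fit, since those at 2 h varied far more in earlier results. On simulated counts for 13555 genes, the same steps called 87.88% of genes changed 2-fold and 71.0% of those changed 1.4-fold. The simulation changed a far smaller share of genes than was called in the data, evenly in both directions. Its noise was independent between genes, so it does not cover a library that deviates as a whole. False calls in it are not reported here.

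Alternatives were RLE scaling, no filter, a CPM of at least 1 in 4 libraries, the replicate number as a block, fits of all 20 or of 16 libraries without 2 h, DESeq2 1.42.0, and each replicate left out. Named genes were up to 20 higher and 20 lower with the largest changes among called genes with a mean of at least 5 CPM and no overlap, unnamed models left out. To these came up to 5 called members of each list, members of small counts and 13 fixed genes. Some genes that this rule allows are not reported here. Fos, Fosb, Myc, Jund, Nr4a2, Ier5, Socs3 and Mnt were added after their values were seen. The comparison, the gene lists and the rule were chosen with earlier results of these data known. Gene positions, spans and antisense overlaps come from GENCODE M21 and promoter windows from RefSeq, both on mm10.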

Additional observations from a re-analysis of the deposited data

Results flagged for a closer look

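In groups of 4 libraries, a library was singled out where its gap to the next one, over the range of the group, passed Dixon's 95% critical value. This was the case in 17 of 298 groups of 4, where chance singles out about 5%.

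Among the levels at 0 h, replicate 1 stood above the other 3 libraries for the stress gene Chac1 (97.1 CPM against 83.9 to 84.7), the clock gene Cry2 (51.2 CPM), the BMP antagonist Nog (28.8 CPM) and the ribonuclease gene Zc3h12a (11.4 CPM). Replicate 2 did so for Hes1 (9.28 CPM against 6.11 to 6.20), Spry4 (11.7 CPM against 6.71 to 7.33), Trib1 (11.7 CPM) and the summed erythroid markers (0.203 CPM, with 0 in the other 3). Replicate 3 had the highest Slc38a2 (540 CPM).

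At 1 h, replicate 2 was highest for Dnajb1 (67.4 CPM) and Stard4 (102 CPM) and lowest for Zfp36l2 (455 CPM against 508 to 515). Replicate 3 was highest for Bcl3 (10.5 CPM) and Grwd1 (35.9 CPM). Replicate 4 was lowest for Neat1 (151 CPM against 161 to 163) and highest for the mitochondrial share of counts (1.68%) and for the summed lymphocyte markers (1.39 CPM against 0.183 to 0.238). In each of the genes named except Trib1, whose groups overlapped, these libraries stayed on their own side of the other time's libraries.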

How the results depend on the processing

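The 2068 calls became 2055 with RLE scaling, 2111 with no filter, 2083 with a CPM filter, 2512 in the fit of 16 libraries, 2074 with DESeq2 and 1666 to 1992 with 1 replicate left out. Fitted with all 20 libraries, 1533 genes were called and the lower ones fell from 860 to 560. No called named gene changed direction under any of the 15 alternatives, and 40 of 165 lost the call under at least 1. Among the 40 genes that the naming rule took for the size of their change, all at 5 CPM or more in the higher group and with no overlap between groups, Fbxo32 was the only one to do so. With only the 250 bases before the start, the E-box share of strong risers went from 16.7% to 8.33% and the AP-1 and FoxO shares of strong fallers from 5.41% to 2.70% and from 16.2% to 10.8%. Among all tested genes the E-box, AP-1 and FoxO shares in that window were 9.96%, 5.55% and 2.72%.

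Same-numbered replicates of the 2 times did not deviate together (correlations of −0.000647 to 0.0380 between them), and not every library correlated best with its own number, so the numbers were not taken as pairs. With the replicate number as a block, 2264 genes were called. This block gave 3 lower collagens in place of 0, 1 higher and 1 lower collagen processing gene in place of 0 and 0, 2 lower actin genes in place of 1 and 1 higher ribosomal protein in place of 0.

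Counts of small lists moved by a few members, and the cause was not tested. In the fit of all 20 libraries, lower members numbered 5 of the Krüppel-like list, 4 of the insulin and IGF list, 1 each of the Notch, tendon, protease and ER chaperone lists, and 0 of the secreted factor, fatty acid, polyamine, glycolysis and actin lists. In the same fit, higher members numbered 0 of the actin and respiratory lists and 1 of the interferon list. In the fit of 16 libraries, the circadian list had 3 higher and 8 lower, collagen processing 1 higher and 2 lower, collagens 1 lower, the interferon list 1 higher and secreted factors 0 lower. With no filter, secreted factors had 2 lower, glycolysis 0 lower, collagens 3 lower, collagen processing 1 higher and 1 lower, actin genes 2 lower, and the interferon and ribosomal protein lists 1 higher each. With the CPM filter, the circadian list had 2 higher and collagen processing 1 higher and 1 lower. DESeq2 gave 1 lower collagen, 1 lower collagen processing gene, 1 higher interferon gene and 0 higher respiratory genes. With 1 replicate left out, lower members ranged from 0 to 1 in the secreted factor, fatty acid, polyamine, glycolysis, collagen and collagen processing lists, 0 to 2 in the chemokine, protease and actin lists, 1 to 2 in the Notch and ER chaperone lists and 1 to 3 among tendon markers. Higher members ranged from 0 to 1 in the BCL2, autophagy, collagen processing, ribosomal protein and respiratory lists, 0 to 2 in the mitosis list, 3 to 5 in the TGF-beta list, 2 to 5 in the polyamine list, 1 to 4 in the circadian list and 3 to 4 among ubiquitin ligases. The precision of every value is limited by 4 libraries a group with totals of 15850304 to 22687173.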
